A study of Homo sapiens with 19 samples.

Results

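The early growth response (EGR) factors EGR1, EGR2, EGR3 and EGR4 and their corepressors NAB1 and NAB2 were followed in RNA-seq libraries of HepG2, a human liver cancer cell line. The 6 genes were picked by symbol out of 34825 gene symbols. The set was selected on results of these data, with the rise of EGR3 after INO80 knockdown in view. Differences of the 6 genes between that knockdown and its control are therefore given as a description with no test. Which other results were in view is not stated, so the siMCRS1 tests and the counts over gene lists may not be independent of the choice. HepG2 cells were transfected with 50 nM siRNA and harvested after 72 h. In a first experiment they received the control siRNA NTG or 1 of 2 siRNAs against INO80 (siINO80#1 and siINO80#2), the ATPase of the INO80 nucleosome remodelling complex, with 3 libraries per group. In a second experiment they received NTG or an siRNA against MCRS1 (siMCRS1), another subunit of that complex, after 3 days in DMSO or in 1 uM EPZ-6438, which blocks H3K27 methylation by EZH2, with 2 libraries of DMSO NTG and of EPZ-6438 siMCRS1 and 3 of the other groups. All groups share the cell line, the siRNA dose and the time, and MCRS1 was targeted by a single siRNA label. The labels do not state that libraries came from separate cultures, so p-values measure the spread between these libraries, which may be technical.

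EGR proteins are zinc finger transcription factors that bind GC-rich sites. EGR1 is a classic immediate-early gene: growth factors, stress and MAP kinase signals raise its transcription within minutes through serum response factor (SRF) and its ETS partners ELK1, ELK3 and ELK4 at CArG boxes, and through CREB. NAB1 and NAB2 bind EGR1, EGR2 and EGR3 and repress their activity, in part by recruiting the NuRD remodelling and deacetylase complex. NAB2 is itself induced by EGR factors, which closes a feedback loop. In liver, EGR1 is induced rapidly by injury and during regeneration.

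In GRCh38.p14, EGR1 lies on chromosome 5 (138465479-138469303), EGR2 on chromosome 10 (62811996-62819167), EGR3 on chromosome 8 (22687659-22693480), EGR4 and NAB1 on chromosome 2 (73290929-73293548 and 190648895-190692766) and NAB2 on chromosome 12 (57089114-57095476). The annotated spans of NAB2 and STAT6 share 69 bases, and those of EGR3 and an uncharacterised long noncoding RNA share 45. Whether the counting used strand is not stated, so reads from those shared bases cannot be assigned with certainty.

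Totals ranged from 17093574 to 25369547 reads per library in the first experiment and from 26038505 to 47397233 in the second. INO80 fell to 48.1% of its NTG mean with siINO80#1 and to 36.4% with siINO80#2, and MCRS1 fell to 7.99% in DMSO and 7.93% in EPZ-6438. All 10 liver markers, among them ALB, AFP, APOB and HNF4A, were above 500 normalized counts in every library. With siINO80#2, 5 of them were lower than in NTG and none higher (median -0.34). HNF4A, a master factor of hepatocytes, was lower in all 4 knockdown contrasts (log2 differences -0.45 and -1.02 with siINO80#1 and siINO80#2, -0.55 with siMCRS1 in either arm, limma adjusted p = 0.00082, 1.87e-06, 0.017 and 0.015). The other liver marker calls with siMCRS1 went the other way. FOXA2 was higher in DMSO (0.51, adjusted p = 0.024) and ALB in EPZ-6438 (0.57, adjusted p = 0.027), with list medians of 0.11 and 0.03. Of 6 markers of blood, endothelium and fibroblasts, VWF had means under 8 in both tables, while CD68 and PECAM1 were detected in every library. COL1A1, a fibroblast collagen, was higher with siMCRS1 in DMSO (log2 difference 1.25, adjusted p = 0.034) and in EPZ-6438 (2.91, adjusted p = 0.00027), and lower with siINO80#2 (-0.63, adjusted p = 0.049). PECAM1 was 0.49 higher with siINO80#2 (adjusted p = 0.0059) and CD68 lower with siMCRS1 in EPZ-6438 (-0.93, adjusted p = 0.0023). The part of these markers in the results was not tested. The summed level of these 6 genes was 1395 to 1571 normalized counts in NTG, 1282 to 1545 with siINO80#1, 1022 to 1801 with siINO80#2, 1467 to 1468 in DMSO NTG, 1425 to 1667 in DMSO siMCRS1, 1134 to 1978 in EPZ-6438 NTG and 1314 to 1575 in EPZ-6438 siMCRS1. One library stood apart: in siINO80#2 library C, 17.7% of the normalized counts came from 13 mitochondrial genes, against 7.93% to 9.21% in the other 8 libraries of that experiment.

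Promoters of EGR1, EGR2 and NAB2 are shown because these members rose with siMCRS1, and those of EGR4 and NAB1 for comparison. Sequences are from RefSeq (GRCh38.p14) and hold the 200 bases before an annotated start, 5′ to 3′ on the gene's strand. Capitals mark CArG boxes, the cyclic AMP response core TGACGT and the EGR sites GCGTGGGCG and GCGGGGGCG, searched on both strands.
EGR1, chr5:138465279-138465478, plus strand: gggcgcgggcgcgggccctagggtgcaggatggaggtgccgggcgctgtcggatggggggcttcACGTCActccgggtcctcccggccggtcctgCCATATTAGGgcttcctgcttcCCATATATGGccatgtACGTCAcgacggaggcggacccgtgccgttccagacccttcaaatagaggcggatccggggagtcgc
EGR2, most downstream annotated start, chr10:62816367-62816566, minus strand: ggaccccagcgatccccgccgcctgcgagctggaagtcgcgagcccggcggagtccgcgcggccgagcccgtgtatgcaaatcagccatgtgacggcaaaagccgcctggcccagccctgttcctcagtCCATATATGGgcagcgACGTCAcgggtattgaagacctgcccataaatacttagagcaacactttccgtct
EGR4, chr2:73293549-73293748, minus strand: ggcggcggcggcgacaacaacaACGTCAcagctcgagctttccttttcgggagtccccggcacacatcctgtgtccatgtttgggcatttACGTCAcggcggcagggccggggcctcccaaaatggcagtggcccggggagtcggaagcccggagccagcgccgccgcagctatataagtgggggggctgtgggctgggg
NAB1, first annotated start, chr2:190648695-190648894, plus strand: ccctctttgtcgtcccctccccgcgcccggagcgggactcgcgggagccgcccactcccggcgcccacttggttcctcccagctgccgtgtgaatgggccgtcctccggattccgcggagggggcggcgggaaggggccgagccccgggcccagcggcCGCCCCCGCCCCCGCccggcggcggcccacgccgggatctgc
NAB2, chr12:57088914-57089113, plus strand: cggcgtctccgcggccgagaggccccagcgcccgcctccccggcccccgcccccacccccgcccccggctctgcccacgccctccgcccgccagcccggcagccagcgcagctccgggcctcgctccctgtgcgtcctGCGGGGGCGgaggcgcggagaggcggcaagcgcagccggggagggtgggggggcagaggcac

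The EGR1 promoter held CArG boxes from -105 to -96 (CCATATTAGG) and from -83 to -74 (CCATATATGG) before the start, both between a pair of TGACGT cores at -136 and -67. The most downstream EGR2 start had a CArG box of the same letters as the nearer EGR1 box, from -71 to -62, and a TGACGT core at -55, while its other annotated starts had neither. The EGR4 promoter held TGACGT cores at -178 and -110 and no CArG box. NAB2 had 1 GCGGGGGCG site from -62 to -54, and the NAB1 window had 2 overlapping copies on the opposite strand, from -42 to -34 and from -36 to -28. NAB1 also had a GCGTGGGCG site from 14 to 22 after this start, outside the printed bases. Counted from the next annotated NAB1 start, that site lay from -175 to -167. The 35116 RefSeq promoter windows of 300 bases include bases after the start. Among them, 1.29% held a CArG box, 7.98% the TGACGT core, 0.795% GCGTGGGCG and 5.07% GCGGGGGCG. These matches describe letters in a window and do not show binding.

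INO80 knockdown was accompanied by higher EGR1 and EGR3 in every library with either siRNA. EGR1 was at 611, 416 and 566 normalized counts in NTG libraries A, B and C, at 1528.5, 1493 and 1796 with siINO80#1, and at 1835, 1998 and 3577 with siINO80#2. All 6 knockdown libraries lay above all NTG libraries, and the means were 531 ± 102 (SD, n = 3), 1606 ± 166 (n = 3) and 2470 ± 962 (n = 3), which is 3.02 and 4.65 times NTG. On the log2(value + 1) scale of the limma fit the differences from NTG were 1.61 and 2.17, each with an SE of 0.23. Library C of siINO80#2, the one with the high mitochondrial share, held the highest EGR1 value, and without it the siINO80#2 difference was 1.87. In bulk RNA, fewer cells of a type and less RNA per cell cannot be told apart.

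EGR3 shares the DNA-binding preference of EGR1 and is an induced target of it in several cell types. It had 5.58, 8.21 and 8.64 normalized counts in NTG, 87.0, 61.5 and 85.7 with siINO80#1, and 67.3, 61.3 and 104 with siINO80#2. The lowest knockdown library thus held several times the highest NTG library. The group means were 7.48 ± 1.66, 78.1 ± 14.4 and 77.5 ± 23.1 (SD, n = 3 each), or 10.4 times NTG with either siRNA, and the fitted log2 differences were 3.22 and 3.19 (SE 0.26 each). A pseudocount of 5 in place of 1 lowered them to 2.73 and 2.70, because the NTG values are small.

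EGR2 and EGR4 were near the limit of measurement. Their means over the 9 libraries, 7.50 and 8.68 normalized counts, were below the minimum mean of 10, so neither entered the fit. EGR2, the factor that drives myelination in Schwann cells, had 2.23, 4.11 and 2.88 in NTG, 8.35, 12.9 and 7.87 with siINO80#1, and 12.3, 4.60 and 12.3 with siINO80#2. The groups did not touch, although library B of siINO80#2 (4.60) was close to the highest NTG library (4.11). In reads, the 3 siINO80#1 libraries together held 29 against 9 in NTG, a ratio of 3.14, given as a description. EGR4, expressed mainly in neurons and testis, had 5.58, 5.13 and 8.64 in NTG, 10.7, 11.9 and 14.0 with siINO80#1, and 6.73, 6.89 and 8.50 with siINO80#2. It lay above NTG only with siINO80#1, and its siINO80#2 libraries fell within the NTG range.

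The corepressors differed from each other. NAB2 was at 367, 357 and 365 normalized counts in NTG, at 550, 619 and 600 with siINO80#1, and at 545, 440 and 354 with siINO80#2. With siINO80#1 all 3 libraries were above NTG, while with siINO80#2 library C was below every NTG library. The means were 363 ± 5.11, 589 ± 35.7 and 446 ± 95.6 (SD, n = 3 each), and the log2 differences from NTG were 0.70 and 0.28 (SE 0.13 each). Without library C the siINO80#2 difference was 0.43, and that library joined the highest EGR1 and EGR3 of the experiment to the lowest NAB2. The part of its mitochondrial share in these values was not tested.

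NAB1 was level across the groups, at 1148, 1141 and 1098 in NTG, 1192, 1045 and 1126 with siINO80#1, and 1099, 1134 and 1038 with siINO80#2. All 3 groups overlapped, and the log2 differences were -0.01 and -0.05 (SE 0.07 each, 95% intervals -0.17 to 0.15 and -0.21 to 0.11).

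**Figure D1:**
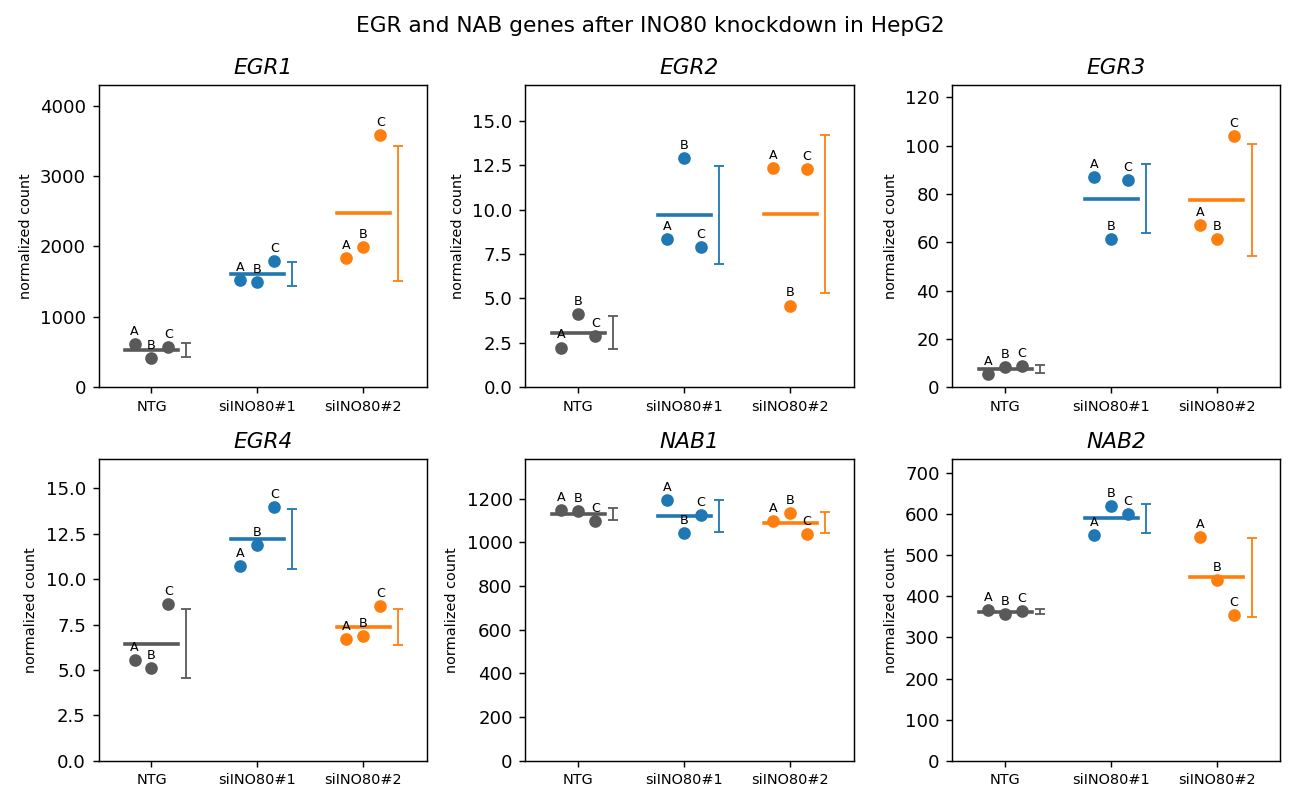
Normalized counts (y axes, linear from 0) of the 6 genes in each library of NTG, siINO80#1 and siINO80#2 (x axes), with library letters beside the points, bars at group means and whiskers of 1 SD (n = 3). EGR1 and EGR3 lie above NTG in all 6 knockdown libraries, NAB1 overlaps in all groups, and NAB2 reaches down to 354 in library C of siINO80#2.

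Counted over the 6 genes, 5 had all siINO80#1 libraries above all NTG libraries and 3 (EGR1, EGR2 and EGR3) had all siINO80#2 libraries above them. Over the 14034 genes tested, which do not include EGR2 and EGR4, 27.8% lay above NTG without overlap with siINO80#1 and 30.0% with siINO80#2. Since the set was chosen from this contrast, nothing is read from that comparison. Both siRNAs were set against the same 3 NTG libraries.

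The contrast between the siRNAs leaves NTG out and was tested by limma, with Benjamini-Hochberg adjustment over all 14034 genes, of which 22.1% passed. It uses the same siINO80 libraries that were in view when the set was chosen, so its p-values are not independent of that choice. Among the 4 members tested, only NAB2 passed at adjusted p under 0.05. It was lower with siINO80#2 (log2 difference -0.42, SE 0.13, adjusted p = 0.046), with all 3 siINO80#2 libraries below all siINO80#1 libraries. This call was lost without siINO80#2 library C (-0.27, adjusted p = 0.093) and under 9 of the other 15 alternatives, with adjusted p up to 0.14. EGR1 was higher with siINO80#2 in all libraries, but the difference of 0.56 did not pass (SE 0.23, 95% interval 0.06 to 1.06, adjusted p = 0.10). For EGR3 the difference was -0.03 (95% interval -0.62 to 0.55, adjusted p = 0.95) and for NAB1 it was -0.04 (95% interval -0.20 to 0.12, adjusted p = 0.75).

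MCRS1 knockdown raised EGR1, EGR3 and NAB2 with DMSO and with EPZ-6438. EGR1 was at 651 and 525 normalized counts in DMSO NTG libraries 1 and 3, and at 4258, 8360 and 3376 in DMSO siMCRS1 libraries 1, 2 and 3. With EPZ-6438 it was at 344, 660 and 391 in NTG, and at 3169 and 5627 in siMCRS1 libraries A and B. Every siMCRS1 library held several times the highest NTG library. The means were 588 ± 89.2 (SD, n = 2) and 5331 ± 2660 (n = 3) in DMSO, and 465 ± 171 (n = 3) and 4398 ± 1738 (n = 2) in EPZ-6438. The log2 differences were 3.08 (SE 0.38, limma adjusted p = 0.00014) and 3.24 (SE 0.38, adjusted p = 6.64e-05), and they passed under all 14 alternatives in each drug arm.

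EGR3 also rose in both arms. Its NTG mean was lower in EPZ-6438 than in DMSO, a difference that did not pass. It had 20.1 and 19.1 normalized counts in DMSO NTG and 54.5, 108 and 74.5 in DMSO siMCRS1. In EPZ-6438 it had 8.62, 12.8 and 6.31 in NTG and 17.6 and 43.5 in siMCRS1. The siMCRS1 libraries lay above the NTG libraries of their own arm, although EPZ-6438 siMCRS1 library A was below both DMSO NTG libraries. The log2 difference was 1.90 in DMSO (SE 0.44, adjusted p = 0.0050) and 1.54 in EPZ-6438 (SE 0.44, adjusted p = 0.013). The EPZ-6438 call was lost without siMCRS1 library B, where the difference was 0.91 (adjusted p = 0.18).

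EGR2 passed the minimum mean only through the siMCRS1 groups, with a mean of 10.1 over the table, so its call is no independent support. It had 0.957 and 3.82 normalized counts in DMSO NTG, 13.4, 22.0 and 18.6 in DMSO siMCRS1, 0, 3.55 and 5.26 in EPZ-6438 NTG, and 12.0 and 21.3 in EPZ-6438 siMCRS1. The groups did not overlap in either arm. Summed over libraries, 45 reads stood against 5 in DMSO, a ratio of 7.52 (95% Clopper-Pearson interval 2.99 to 24.3), and 39 against 10 in EPZ-6438, a ratio of 5.39 (2.64 to 12.1). These intervals hold counting error only and leave out the spread between libraries. The fitted log2 differences were 2.60 (SE 0.77, adjusted p = 0.017) and 2.48 (SE 0.77, adjusted p = 0.018), and the DMSO call was lost without NTG library 1 (1.95, adjusted p = 0.14). With a pseudocount of 0.1 both calls were lost (adjusted p = 0.098 and 0.051). EGR4, with a mean of 6.56, was not tested. It had 6.70 and 7.63 in DMSO NTG, 6.68, 6.61 and 10.0 in DMSO siMCRS1, 4.31, 7.10 and 2.10 in EPZ-6438 NTG and 6.40 and 7.99 in EPZ-6438 siMCRS1, and its 4 groups overlapped from each to the next in order of mean.

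NAB2 rose with siMCRS1 in both arms. It was at 710 and 580 normalized counts in DMSO NTG, 1174, 1486 and 1087 in DMSO siMCRS1, 635, 624 and 546 in EPZ-6438 NTG, and 939 and 1097 in EPZ-6438 siMCRS1. All 5 siMCRS1 libraries lay above all 5 NTG libraries. The means were 645 ± 92.0 (SD, n = 2) and 1249 ± 210 (n = 3) in DMSO and 602 ± 48.7 (n = 3) and 1018 ± 112 (n = 2) in EPZ-6438, with log2 differences of 0.95 (SE 0.16, adjusted p = 0.00069) and 0.76 (SE 0.16, adjusted p = 0.0020). Both held under all 14 alternatives.

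NAB1 moved little. It was at 2661 and 2540 in DMSO NTG, 2769, 3309 and 2644 in DMSO siMCRS1, 2964, 2495 and 2665 in EPZ-6438 NTG, and 3342 and 3323 in EPZ-6438 siMCRS1. In DMSO the groups overlapped, with a log2 difference of 0.15 (SE 0.12, 95% interval -0.10 to 0.41, adjusted p = 0.29). In EPZ-6438 the difference of 0.30 (SE 0.12) passed narrowly, at adjusted p = 0.046, and was lost under 10 of 14 alternatives. With libraries scaled to equal totals it was 0.06 (adjusted p = 0.66), a scaling under which the median of all tested genes fell by 0.23 in this contrast.

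**Figure D2:**
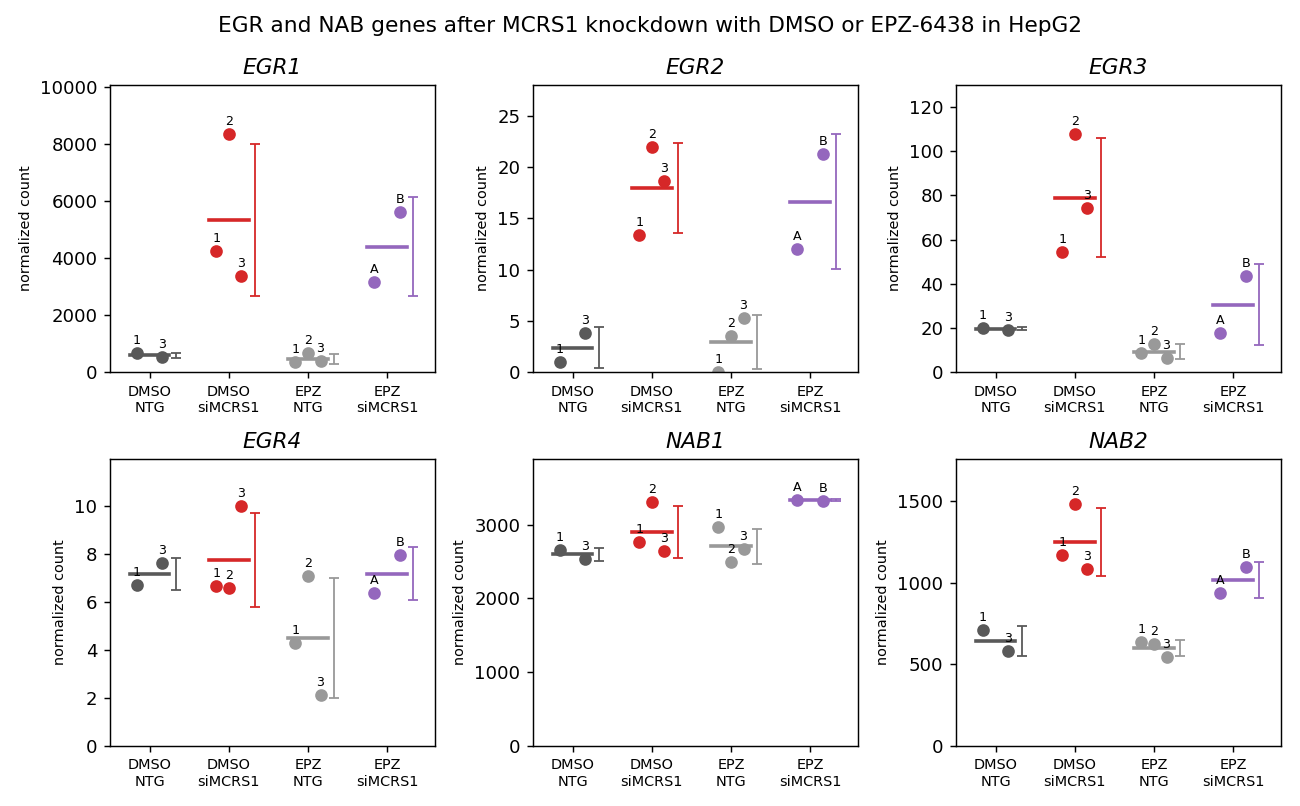
Normalized counts (y axes, linear from 0) of the 6 genes in each library of the MCRS1 experiment (x axes, DMSO or EPZ-6438 with NTG or siMCRS1), with library names beside the points, bars at group means and whiskers of 1 SD (n = 2 or 3). DMSO siMCRS1 library 2 is the highest of its group for EGR1, EGR2, EGR3, NAB1 and NAB2.

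Of the 6 members, EGR4 was not tested and EGR2 was tested only through the groups in which it is high, so neither is counted. Of the other 4, EGR1, EGR3 and NAB2 were higher with siMCRS1 in DMSO, where 23.1% of 14312 genes were higher and 24.6% lower. In EPZ-6438 the same genes and, narrowly, NAB1 were higher, where 26.8% of genes were higher and 26.9% lower. The EGR3 mean in EPZ-6438 NTG, 9.24, was itself under the minimum of 10. These arms use different libraries but the same siRNA label.

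Within groups, the same libraries stood high for several of these genes. Library 2 of DMSO siMCRS1 was the highest of 3 for all 5 members tested and for 16 of 17 other immediate-early genes tested, against 31.0% of all tested genes. In EPZ-6438 siMCRS1, library B was the higher of the pair for EGR1, EGR2, EGR3 and NAB2 and for 15 of those 17 genes, against 48.1% of all tested genes. In the INO80 experiment, library C of siINO80#1 was the highest of 3 for 13 of 18 other immediate-early genes, against 33.3% of all tested genes. Of the 4 members tested there, it was the highest for 1, EGR1. Without DMSO siMCRS1 library 2 the log2 differences from NTG were 2.70 for EGR1, 1.65 for EGR3 and 0.81 for NAB2, all still past the threshold (adjusted p = 0.00043, 0.023 and 0.0027). The mitochondrial share was 6.33% in library 2 and 5.90% in library B, where the 10 libraries ran from 5.90% to 8.67%.

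EPZ-6438 against DMSO passed for no member, in a comparison where 0.384% of genes passed with NTG and 0.0908% with siMCRS1. EGR3 had lower means with the drug, but the difference did not pass with either siRNA. Its means were 9.24 ± 3.28 (SD, n = 3) against 19.6 ± 0.720 (n = 2) with NTG and 30.5 ± 18.3 (n = 2) against 79.0 ± 27.0 (n = 3) with siMCRS1. The log2 differences were -1.06 (SE 0.44, 95% interval -2.04 to -0.08, adjusted p = 0.26) and -1.42 (SE 0.44, 95% interval -2.40 to -0.44, adjusted p = 0.34). For EGR1 they were -0.39 (95% interval -1.23 to 0.45) and -0.22 (-1.07 to 0.62). For NAB2 they were -0.10 (-0.44 to 0.25) and -0.29 (-0.63 to 0.06), and for NAB1 0.06 (-0.20 to 0.31) and 0.20 (-0.05 to 0.46).

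The response to siMCRS1 was not shown to differ between the arms. The interaction, the EPZ-6438 difference minus the DMSO difference, passed for 0% of 14312 genes by limma and for no gene by edgeR, with 336 and 344 genes at an unadjusted p under 0.05. It was 0.16 for EGR1 (95% interval -1.03 to 1.36), -0.12 for EGR2 (-2.52 to 2.27), -0.36 for EGR3 (-1.75 to 1.02), 0.15 for NAB1 (-0.21 to 0.51) and -0.19 for NAB2 (-0.68 to 0.30) on the log2 scale.

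**Figure D3:**
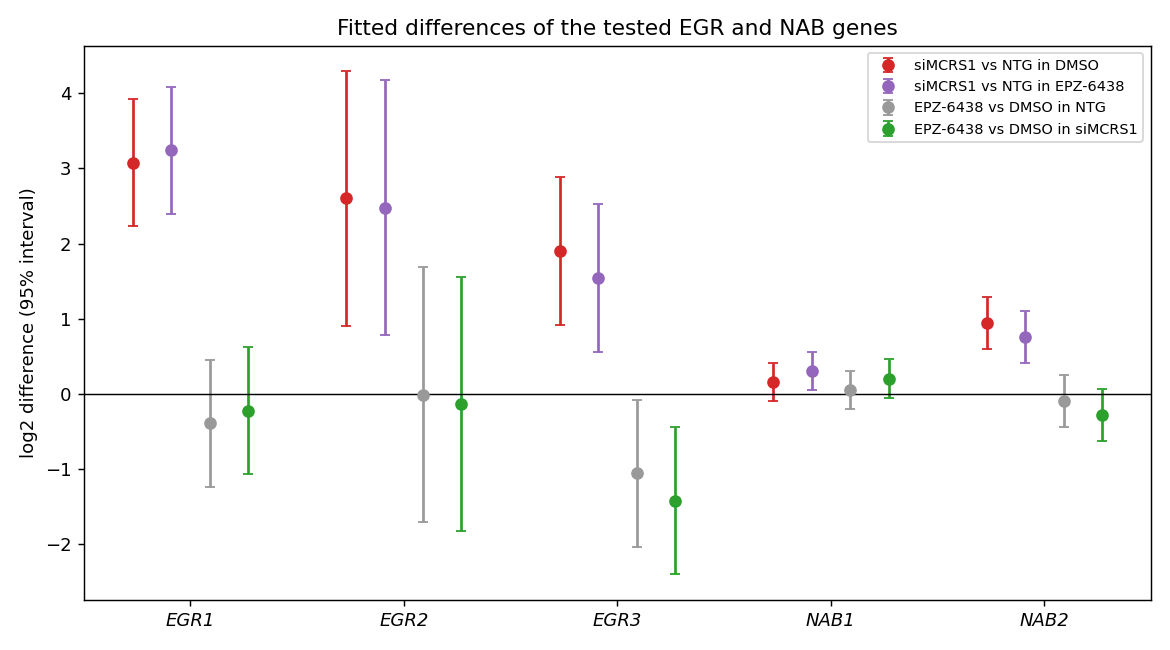
Fitted log2 differences (y axis) with 95% intervals for the 5 tested genes (x axis) in the 4 contrasts of the MCRS1 experiment (colours). The siMCRS1 intervals for EGR1, EGR3 and NAB2 lie above 0 in both drug arms. Those of EGR2 do too, but it was tested only through the siMCRS1 groups, so they are no independent support. The EPZ-6438 intervals of EGR3 lie below 0 although neither passed after adjustment over all genes.

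Ordered by mean, EGR1 rose from NTG (531) through siINO80#1 (1606) to siINO80#2 (2470) with no overlap between neighbours. EGR3 was lowest in NTG (7.48), and its siINO80#2 (77.5) and siINO80#1 (78.1) groups overlapped. In the MCRS1 experiment the EGR1 order was EPZ-6438 NTG (465), DMSO NTG (588), EPZ-6438 siMCRS1 (4398) and DMSO siMCRS1 (5331), and only the middle neighbours did not overlap. For EGR3 it was EPZ-6438 NTG (9.24), DMSO NTG (19.6), EPZ-6438 siMCRS1 (30.5) and DMSO siMCRS1 (79.0). The middle neighbours overlapped, and neither drug difference passed. The tables were normalized separately, so levels are not set against each other across them.

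Across libraries, EGR1 and EGR3 had a Pearson r of 0.93 over the 9 libraries of the INO80 experiment and 0.88 over the 10 of the MCRS1 experiment, as a description of libraries that share their groups. EGR1 and NAB2 had r = 0.43 in the first and 0.97 in the second, and EGR1 and NAB1 had -0.40 and 0.64. Among 11419 genes with means of at least 50 in both tables, those most like EGR1 by the mean of the 2 r values included TIMP3 (0.989), a metalloproteinase inhibitor, WASF1 (0.981), GDF15 (0.981), a stress-induced cytokine, and TUBB2B (0.980), a beta tubulin. Those most like EGR3 were MAP4K3 (0.969), a kinase, ARHGEF28 (0.967), FNBP1 (0.963), LIN28B (0.960), which blocks let-7 maturation, and ARID3B (0.958). By the same measure NAB2 ranked 2542 for EGR1 and 1705 for EGR3.

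Genes that act upstream of EGR1 were higher in part. Of 14 MAP kinase pathway, SRF, ELK, MRTF and CREB genes, siINO80#1 raised 8 and lowered 1, MKL2, while siINO80#2 raised 8 and lowered none. Over all genes, 20.7% were higher and 20.8% lower with siINO80#1, and 26.6% and 28.4% with siINO80#2. With siMCRS1, 6 rose in DMSO and 7 in EPZ-6438, and none fell. The shares of all genes were 23.1% higher and 24.6% lower in DMSO, and 26.8% and 26.9% in EPZ-6438. The list medians were 0.30, 0.30, 0.27 and 0.25 on the log2 scale, against medians between 0.00 and 0.01 over all tested genes. MAPK3, the kinase ERK1, was 1.16 higher with siINO80#1 (SE 0.12, adjusted p = 4.05e-05) and 1.19 higher with siINO80#2 (adjusted p = 1.58e-05). With siMCRS1 its differences of -0.06 in DMSO and -0.49 in EPZ-6438 did not pass. SRF was 0.87 higher with siINO80#1 (adjusted p = 2.92e-05) and 0.28 higher with siINO80#2 (adjusted p = 0.019). With siMCRS1, SRF was 0.84 higher in DMSO and 0.82 higher in EPZ-6438 (adjusted p = 0.00045 and 0.00039). ELK3, an ETS partner of SRF, rose by 1.43 with siINO80#2, by 1.05 with siMCRS1 in DMSO and by 1.39 in EPZ-6438 (adjusted p = 1.96e-05, 0.00044 and 5.79e-05). With siINO80#1 it rose by 0.73 (adjusted p = 0.0029). MAP2K1, the kinase that activates ERK, rose by 1.04 and 1.20 with siMCRS1 (adjusted p = 7.08e-05 and 1.92e-05). It rose by 0.32 with siINO80#1 and 0.36 with siINO80#2 (adjusted p = 0.039 and 0.020). MKL1, an actin-regulated SRF coactivator also named MRTFA, rose by 0.65 with siINO80#2, and with siMCRS1 by 0.95 in DMSO and 0.83 in EPZ-6438 (adjusted p = 0.00026, 0.0020 and 0.0036). With siINO80#1 it rose by 0.72 (adjusted p = 0.00024). The kinase gene RPS6KA4 was 0.76 higher with siINO80#1 (adjusted p = 0.00022) and 0.44 higher with siINO80#2 (adjusted p = 0.0041), and did not pass with siMCRS1.

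Subunits of NuRD, through which NAB proteins act in part, changed in both directions with either siINO80 and with siMCRS1 in DMSO. In EPZ-6438 those that passed were all higher with siMCRS1. Of 11, siINO80#1 raised 1 and lowered 2, siINO80#2 raised 4 and lowered 1, and siMCRS1 raised 4 and lowered 1 in DMSO and raised 6 in EPZ-6438. Over all tested genes, 20.7% and 20.8% were higher and lower with siINO80#1, 26.6% and 28.4% with siINO80#2, 23.1% and 24.6% with siMCRS1 in DMSO, and 26.8% and 26.9% in EPZ-6438, so the share of subunits passing in either direction was below that of all genes with each siINO80 and close to it with siMCRS1. The share that was higher exceeded that of all genes in each contrast except siINO80#1. The list medians were 0.05, 0.11, 0.17 and 0.26. The histone chaperone subunits fell, RBBP4 by 0.54 (adjusted p = 0.00025) and RBBP7 by 0.35 (adjusted p = 0.0040) with siINO80#1 and RBBP7 by 0.54 with siINO80#2 (adjusted p = 0.00016). MTA2 rose by 0.61 with siINO80#2, by 0.52 with siMCRS1 in DMSO and by 0.51 in EPZ-6438 (adjusted p = 4.90e-05, 0.0012 and 0.0010). GATAD2B, a scaffold subunit, rose by 0.65, 0.56 and 0.51 in the same 3 comparisons (adjusted p = 0.00094, 0.015 and 0.021). GATAD2A was 0.27 higher with siINO80#1 (adjusted p = 0.034), and 0.55 and 0.52 higher with siMCRS1 in DMSO and EPZ-6438 (adjusted p = 0.0093 and 0.0100). The GATAD2A calls were lost with equal totals (adjusted p = 0.090, 0.052 and 0.067), as were those of GATAD2B with siMCRS1 (0.091 and 0.14).

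Genes known as EGR targets in other cells moved in both directions after INO80 knockdown and mostly upward after MCRS1 knockdown. Of 18 tested in the first experiment, 11 rose and 4 fell with siINO80#1, and 10 rose and 3 fell with siINO80#2. Of 21 tested in the second, 16 rose in each arm, while 2 fell in DMSO and 1 in EPZ-6438. CD44, ARC and FGF2 in DMSO, and CD44 and ARC in EPZ-6438, had NTG means under 10 and were tested only through the siMCRS1 groups, and without them 14 of 18 and 14 of 19 rose. Over all tested genes, 20.7% rose and 20.8% fell with siINO80#1, 26.6% and 28.4% with siINO80#2, 23.1% and 24.6% in DMSO, and 26.8% and 26.9% in EPZ-6438. The medians were 0.44, 0.53, 1.00 and 1.08. TGFB1, a profibrotic cytokine, rose from 505 ± 28.3 to 2131 ± 460 with siINO80#1 and to 2408 ± 832 with siINO80#2 (SD, n = 3 each). The log2 differences were 2.06 and 2.20 (adjusted p = 3.36e-05 and 1.01e-05). With siMCRS1 it rose by 2.30 in DMSO and by 2.05 in EPZ-6438 (adjusted p = 2.32e-05 and 2.06e-05). PLAU, the urokinase protease, rose by 2.46 with siINO80#2 (adjusted p = 2.89e-07) and by 1.04 with siINO80#1 (adjusted p = 9.06e-05). With siMCRS1 it rose by 1.00 in DMSO and 0.89 in EPZ-6438 (adjusted p = 0.0089 and 0.014). GJB1, a connexin of hepatocyte gap junctions and an EGR2 target in Schwann cells, fell from 1859 ± 259 to 550 ± 59.7 and 398 ± 68.6 (SD, n = 3 each), log2 differences of -1.75 and -2.23 (adjusted p = 8.05e-06 and 8.19e-07). GJB1 also fell with siMCRS1, with log2 differences of -1.775 in DMSO and -1.8 in EPZ-6438 (adjusted p = 0.0011 and 0.00078).

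PMP22, a myelin protein gene activated by EGR2 in Schwann cells, fell by 1.47 with siINO80#1 (adjusted p = 0.00017) and rose by 1.02 with siINO80#2 (adjusted p = 0.0010), by 0.92 with siMCRS1 in DMSO (adjusted p = 0.0010) and by 1.08 in EPZ-6438 (adjusted p = 0.00029). Between the INO80 siRNAs it differed by 2.50 (adjusted p = 5e-05). The adhesion receptor CD44 rose by 4.93 with siMCRS1 in DMSO and by 3.85 in EPZ-6438 (adjusted p = 2.04e-05 and 3.73e-05), from 2.39 ± 0.671 to 103 ± 20.9 normalized counts in DMSO. Like ARC, it entered the test only through the siMCRS1 groups. ARC, an activity-regulated gene of neurons, had 1 read in all in DMSO NTG and 81 in DMSO siMCRS1, a ratio of 67.7 with a counting interval of 11.8 to 2705, and 6 and 33 reads in EPZ-6438, a ratio of 7.61 (3.15 to 22.2). THBS1, the matrix protein thrombospondin, rose by 3.14 with siMCRS1 in EPZ-6438 (adjusted p = 1.58e-06) and by 2.09 in DMSO (adjusted p = 1.12e-05). It rose by 1.28 with siINO80#1 (adjusted p = 1.02e-05), while its difference of 0.07 with siINO80#2 did not pass (adjusted p = 0.63).

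Other immediate-early genes, which share SRF and MAP kinase inputs with EGR1, rose more often than they fell. Of 18 tested, 7 rose with siINO80#1 and none fell, and 11 rose and 1, CYR61, fell with siINO80#2. NR4A3 had an NTG mean under 10 and was tested only through the siINO80 groups, and without it 7 of 17 and 11 of 17 rose. Of 17 tested with siMCRS1, 14 rose and 1, BTG2, fell in DMSO, and 15 rose in EPZ-6438. The shares of all tested genes that rose were 20.7%, 26.6%, 23.1% and 26.8% in these 4 contrasts. The medians were 0.41, 0.79, 1.10 and 1.46. FOS, a partner of JUN in AP-1, rose from 42.1 ± 21.7 (SD, n = 2) to 349 ± 146 (n = 3) with siMCRS1 in DMSO, and by 3.04 and 3.09 on the log2 scale in the 2 arms (adjusted p = 0.00026 and 0.00017). ATF3, a stress-response factor, rose by 1.99 and 2.65 (adjusted p = 0.00038 and 4.78e-05) and IER3 by 1.89 and 2.08 (adjusted p = 0.00027 and 0.00010).

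With siINO80#1 the leading genes were JUNB (0.95, adjusted p = 0.0019), KLF10 (0.87, adjusted p = 4.81e-05) and IER2 (0.74, adjusted p = 0.0014). With siINO80#2 they were IER3 (1.05, adjusted p = 0.0024), FOSB (1.03, adjusted p = 0.013) and KLF6 (0.96, adjusted p = 0.00022). EPZ-6438 changed 1 gene of the 4 lists, MCL1, a survival factor of the BCL2 family, which was lower with NTG (-0.59, SE 0.11, adjusted p = 0.046). No list gene passed for EPZ-6438 with siMCRS1 or for the interaction.

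**Figure D4:**
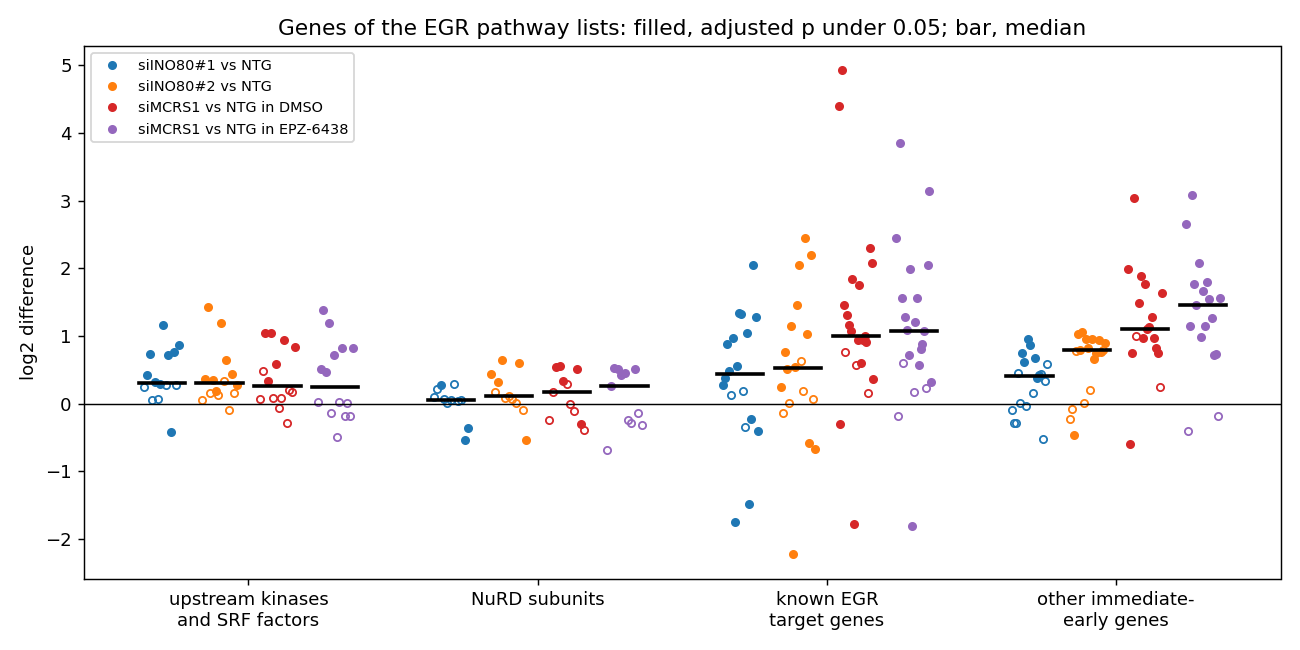
Fitted log2 differences (y axis) of every tested gene of 4 lists (x axis) in the knockdown contrasts (colours), filled where the adjusted p was under 0.05 and open otherwise, with a bar at the median. Medians of the EGR target and immediate-early lists lie at 1.00 to 1.46 after siMCRS1, and those of NuRD subunits between 0.05 and 0.26 in all 4 contrasts.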

How the data were processed

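HepG2 RNA was extracted and stranded mRNA libraries were made. The submitters' processing notes name kallisto, DESeq2 and GRCh38, and give neither their roles nor versions. The authors deposited normalized counts, a signal equal to whole reads divided by 1 size factor per library. All values came back as whole reads within a tolerance of 0.001, so rounded estimates cannot be told from reads. Deposited tables of 9 and 10 libraries were analysed apart, since each was normalized on its own. Columns of 3 groups in the second table carry numbers in place of the labelled letters, so those libraries are known by group only.

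Genes with a mean of at least 10 were tested by limma 3.58.1 in R 4.3.3 on log2(value + 1), with 1 fit per table, a mean-variance trend and Benjamini-Hochberg adjustment over all genes tested. A call is an adjusted p under 0.05, two-sided. Fold changes on this scale understate those of low genes. The code was tested on simulated data. Reads were also tested by edgeR 4.0.16, an alternative added after the values were seen. Correlations and tables used Python 3.11.15 and scipy 1.17.1. Other alternatives were pseudocounts of 0.1 and 5, no filter, a mean of at least 50, equal totals, quantile normalization, no trend, only the groups compared, a replicate block and leaving out each library.

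The members and lists were chosen with earlier results of these data known, so their p-values and counts may not be independent of that choice. Named were the 6 members, up to 3 genes per list and knockdown with the largest difference among those passing without overlap, the 5 genes most like EGR1 and EGR3 with means of at least 50, the targeted genes and the cell markers. One gene that this rule names is not reported here. EGR3 had no entry in the promoter table.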

Additional observations from a re-analysis of the deposited data

How the results depend on the processing

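The rises of EGR1 and NAB2 with siMCRS1 passed in both arms under every alternative run, with log2 differences of 2.69 to 3.35 and 0.71 to 1.09 in DMSO and 2.83 to 3.65 and 0.52 to 0.89 in EPZ-6438. Members passing with siMCRS1 numbered 4 in DMSO and 5 in EPZ-6438. Both counts include EGR2, which was tested only through the groups in which it is high. Over all tested genes, 23.1% were higher and 24.6% lower in DMSO, and 26.8% and 26.9% in EPZ-6438. With a minimum mean of 50 the members passing were 2 and 3, because EGR2 and EGR3 were no longer tested. In EPZ-6438 they were 3 with equal totals and 3 in a fit of only the groups compared, and 3 to 4 and 2 to 5 when 1 library was left out. Between the INO80 siRNAs the count of 1 (NAB2) was 0 without a filter, with equal totals, with quantile normalization, without a trend and in a fit of only the groups compared, and 0 to 1 when 1 library was left out. The causes were not tested.

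For the INO80 experiment, the log2 values of each gene were expressed as deviations from their group mean. These deviations, not the levels, were correlated between libraries of different groups. Libraries with the same replicate letter had correlations of -0.08 to 0.26 (mean 0.10), against -0.25 to 0.10 (mean -0.05) between letters. All 3 pairs of NTG and siINO80#1 exceeded 0.1, but not every pair with siINO80#2 did, so the letters were not taken as a pairing, and not every library correlated best with its own letter. With a replicate block, 2 members passed between the siRNAs, NAB2 and EGR1 (adjusted p = 0.046). No block could be fitted in the MCRS1 experiment, where most columns carry no labelled letter.

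For the lists, NuRD subunits passing were 5 in a fit of only the groups compared for siINO80#1 (3 in the report), 3 with equal totals for siINO80#2 and 3 for siMCRS1 in DMSO, where leaving out 1 library gave 3 to 5, and 2 to 6 in EPZ-6438. Upstream genes passing for siINO80#2 were 4 with equal totals and 5 to 7 when 1 library was left out, and for siMCRS1 in EPZ-6438 they were 4 to 7. With equal totals the medians of all tested genes moved by -0.23 for siMCRS1 in both arms, and the genes called were 1892 higher and 5107 lower in DMSO (3307 and 3523 as reported) and 2292 and 5333 in EPZ-6438 (3839 and 3847). For siINO80#1 they were 2164 and 3277 (2912 and 2921).

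Signs turned only for differences that did not pass. With 1 library left out, the differences ran from -0.26 to 0.12 for EGR3 and from -0.0885 to 0.0066 for NAB1 between the INO80 siRNAs, and edgeR gave 0.0029 for EGR3. For EPZ-6438 with NTG they ran from -0.66 to 0.80 for EGR2, -0.0116 to 0.11 for NAB1 and -0.24 to 0.0487 for NAB2, and EGR2 was 0.0680 with a pseudocount of 5 and 0.34 by edgeR. For EPZ-6438 with siMCRS1 EGR1 ran from -0.64 to 0.19. The interaction ran from -0.25 to 0.58 for EGR1, -0.93 to 0.53 for EGR2 and -0.99 to 0.27 for EGR3, and that of EGR2 was 0.56 with a pseudocount of 0.1 and 0.0723 with quantile normalization. NAB1 with siMCRS1 in DMSO was -0.0806 with equal totals. At 2 or 3 libraries per group and the low counts of EGR2, EGR3 and EGR4, smaller differences were not detectable.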
